A study of Mus musculus with 4 samples.

Results

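Notch signalling was examined in mouse brain endothelial cells through 10 genes: the ligands Dll4, Jag1 and Jag2, the receptors Notch1 and Notch4, the DNA-binding partner Rbpj, and the target genes Hes1, Hey1, Hey2 and Heyl. The genes were taken by symbol, and all 10 were among the 14100 genes that both deposited count tables list (17905 genes are in at least 1 table). The list was selected on earlier results of these same counts, in which Hes1 already stood out, so the genotype values of these genes are a description and support nothing by themselves.

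Notch is a receptor that is cut after it binds a Delta-like or Jagged ligand on a neighbouring cell. The released intracellular part enters the nucleus, joins Rbpj on DNA and switches on Hes and Hey genes, which encode transcriptional repressors of the basic helix-loop-helix class. In growing vessels, Dll4 on leading tip cells signals to Notch1 on the following stalk cells, and Notch activity in endothelium is also tied to arterial identity and to the recruitment of mural cells.

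The libraries were RNA sequencing of endothelial cells from C57BL/6 brain at embryonic day 18. The genotype labelled STINGECKO, written STING ECKO here, has 2 libraries (1 and 2), and wild type (WT) has 2 libraries (3 and 5). STING, encoded by Tmem173, is an adaptor of the cytosolic DNA-sensing pathway, and the genotype name denotes its knockout in endothelial cells. The sources used here name neither the Cre driver nor the deleted exons nor the method of cell isolation. The design text mentions triplicates, and the 2 labelled libraries of each genotype are described here. The labels do not tie libraries to separate animals, so a p-value speaks only to how far these libraries differ, and that difference may be technical. By its title, the study asks how STING signalling in endothelium bears on oligodendrocyte formation and myelin in the developing brain.

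The libraries held 18610298 and 22169261 listed reads in STING ECKO 1 and 2, against 21472677 and 20591981 in WT 3 and 5. Tmem173 measured 3.64 and 8.34 CPM (reads scaled to a common library total) in STING ECKO 1 and 2, against 4.46 and 6.23 CPM in WT 3 and 5, so the targeted gene was not lower under the knockout label and every direction rests on the labels; reads from exons that a deletion leaves in place would still be counted. STING ECKO 1 had 3623 reads of the Y-linked gene Ddx3y and 0 of Xist, which is transcribed from the inactive X chromosome, while the Xist count was 876 in STING ECKO 2, against 2347 and 3374 in WT 3 and 5, so sex differs within STING ECKO. STING ECKO 2 had 13.2% of the genes listed in both tables at 0 reads, against 2.39% to 5.25% in the other libraries. The endothelial markers were abundant: 10 of 10 had reads in every library, with a summed level of 20937 and 22461 CPM in STING ECKO, against 20344 and 19964 CPM in WT. Cldn5 gave the largest part of these sums. Of the 10, 3 were higher and 1 lower in STING ECKO without overlap, beside 15.6% and 18.6% of all tested genes. The lower one was Pecam1, at 526 and 474 CPM in STING ECKO, against 616 and 593 CPM in WT. In bulk RNA, fewer cells of a type and less RNA per cell cannot be told apart.

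Levels of different genes were compared as CPM per kilobase of exon, averaged over the 4 libraries. The targets Hes1 (95.2 ± 61.9, SD, n = 4) and Hey1 (73.6 ± 8.85) and the ligand Dll4 (61.2 ± 11.5) were the most abundant, and neighbours in this order overlapped in mean ± SD. Heyl (34.2 ± 2.36) and Jag2 (30.5 ± 4.09) followed and overlapped each other, and then came Jag1 (19.1 ± 6.29), the receptor Notch4 (13.3 ± 6.86) and the receptor Notch1 (11.9 ± 2.55), each overlapping the next. Hey2 (1.93 ± 1.43) and Rbpj (0.561 ± 0.195) were lowest. With the longest transcript as the length in place of all exons, the levels were 3.47 for Hey2, 1.30 for Rbpj and 17.9 for Notch1, and Hey2 and Rbpj were still lowest. By all exons, of 13345 tested genes with a known length, 96.3% had a lower mean CPM per kilobase than Hes1 and 93.5% a lower one than Dll4, while 28.1% were below Hey2 and 8.48% below Rbpj. The order partly depended on the genotype: in STING ECKO the mean of Hes1 was 147 CPM per kilobase, above Hey1 (73.7) and Dll4 (61.7), and in WT it was 43.2, below Hey1 (73.6) and Dll4 (60.6).

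**Figure D1:**
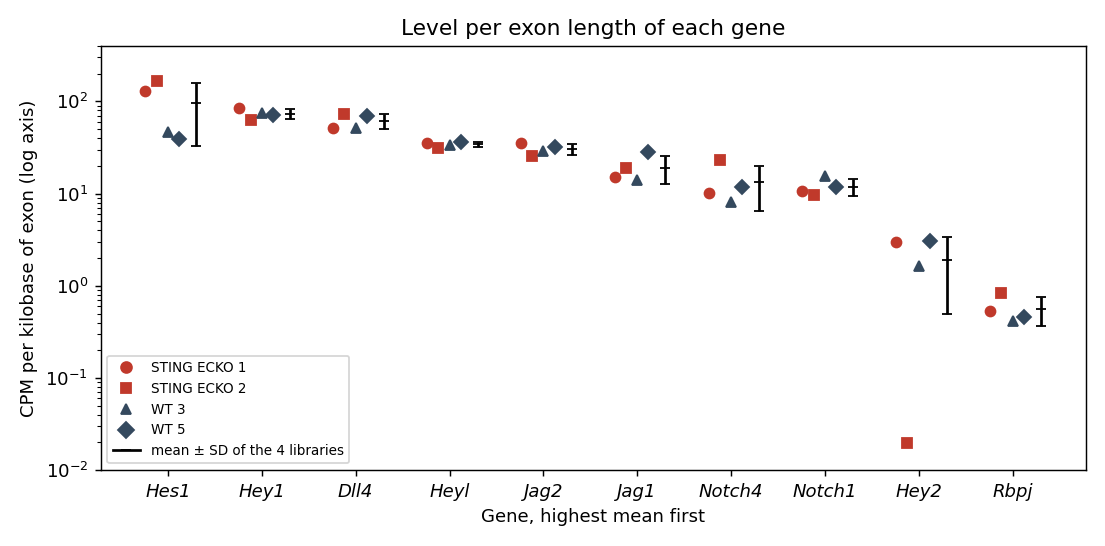
CPM per kilobase of exon (log axis) of each gene, ordered by mean; red points are STING ECKO 1 (circle) and 2 (square), dark points WT 3 (triangle) and 5 (diamond), and the bar is the mean ± SD of the 4 libraries. Hes1 has the highest mean and a wide spread between the genotypes, Heyl the narrowest spread, and Hey2 drops to 0.0199 in STING ECKO 2.

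Sequence upstream of the genes is shown because the list is built around Rbpj and its targets. RefSeq promoter windows (GRCm38.p6, 250 bases before to 50 after the start) matched 7 of the 10 genes in 8 windows; Hes1, Hey1 and Heyl have no entry. The core of the Rbpj recognition site, TGGGAA on either strand (TTCCCA when read on the other), was present in the windows of 2 of these 7 genes, Hey2 and Rbpj itself, and in 25.6% of all 32851 windows. Of the genes searched outside the 10, the Hes gene Hes5, whose reads are given further on, held it. Nrarp, Hes6, Notch2 and Notch3 were also searched and did not hold it. Each sequence runs 5′ to 3′ on the strand of the gene, from 250 bases before the start to 20 after it, with the core in capitals.
Hey2, chr10:30842764-30843033, minus strand: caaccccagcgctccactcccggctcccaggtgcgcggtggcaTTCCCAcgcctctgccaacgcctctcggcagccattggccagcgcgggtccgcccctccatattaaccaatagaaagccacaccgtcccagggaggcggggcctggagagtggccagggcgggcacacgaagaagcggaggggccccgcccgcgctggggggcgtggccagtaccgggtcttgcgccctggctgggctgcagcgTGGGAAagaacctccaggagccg
Rbpj, chr5:53590096-53590365, plus strand: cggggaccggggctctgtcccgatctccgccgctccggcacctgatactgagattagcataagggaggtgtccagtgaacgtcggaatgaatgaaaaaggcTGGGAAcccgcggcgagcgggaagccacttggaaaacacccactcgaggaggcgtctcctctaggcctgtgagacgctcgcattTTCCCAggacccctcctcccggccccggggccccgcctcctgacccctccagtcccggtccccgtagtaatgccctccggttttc
Hes5, chr4:154960673-154960942, plus strand: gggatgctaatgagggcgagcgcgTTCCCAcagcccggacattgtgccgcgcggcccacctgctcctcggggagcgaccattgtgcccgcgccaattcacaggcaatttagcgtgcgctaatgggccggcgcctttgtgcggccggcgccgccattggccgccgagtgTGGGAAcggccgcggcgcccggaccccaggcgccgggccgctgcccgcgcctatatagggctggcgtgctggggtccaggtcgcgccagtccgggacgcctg
With the last base before the start counted as -1, the cores began at -207 and -3 in Hey2, at -149 and -65 in Rbpj, and at -226 and -82 in Hes5. In Hey2 and in Hes5, the upstream core lay on the opposite strand and the downstream one on the strand of the gene. The second Rbpj window, from another start, held a single core at -205, which is the same genomic site as that at -65. Other motifs searched on both strands were the class C E-box bound by Hes and Hey proteins (CACGCG, in 9.27% of all windows) and the N box (CACNAG, in 42.5%). Among the 10 genes, the E-box was found for Dll4, Jag1 and Jag2, and the N box for Notch1 and Dll4. The N box copies of Notch1 at -3 and -1 overlap. A match of these letters is a description of the window and not a binding site.

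Hes1 encodes a repressor that is a direct Notch target and also responds to other signals. Hes1 (ENSMUSG00000022528, chromosome 16, 30064384 to 30067796, plus strand, GRCm38) had 4827 and 7360 reads in STING ECKO 1 and 2, against 2077 and 1684 reads in WT 3 and 5. In CPM these were 262 and 337 in STING ECKO, against 95.4 and 80.7 in WT. Both STING ECKO libraries were above both WT libraries. The mean was 300 ± 52.8 CPM in STING ECKO, against 88.1 ± 10.4 CPM in WT (SD, n = 2 each). The log2 fold change was thus 1.77 (SE 0.26), or 3.40-fold. Hes1 did not pass the quasi-likelihood test of edgeR, adjusted by Benjamini-Hochberg over 13365 genes (adjusted p = 0.971, a value that no gene fell below), whereas DESeq2 gave an adjusted p of 1.33e-05 and the edgeR likelihood ratio test 0.00259. Across 13 other settings the log2 fold change stayed between 1.58 and 1.93, with adjusted p from 1.33e-05 to 1.00 (edgeR, limma or DESeq2). Of 4051 tested genes with a mean of at least 50 CPM, 7 (0.173%) had a log2 fold change at least as high, Hes1 included.

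Hes1 was set against the other targets in the same library, where the library scaling cancels. Hey1 and Heyl overlapped between the genotypes, so these ratios restate the difference in Hes1 and add no support to it. Per kilobase of exon, the level of Hes1 was 1.53 and 2.63 times that of Hey1 in STING ECKO 1 and 2, against 0.618 and 0.555 times in WT 3 and 5. Relative to Heyl it was 3.62 and 5.35 times in STING ECKO, against 1.37 and 1.09 times in WT. The genotypes did not overlap in either ratio, and no share over all gene pairs was computed. The ratio of Heyl to Hey1 was 0.422 and 0.490 in STING ECKO, against 0.450 and 0.507 in WT, and here the genotypes overlapped. The 3 genes whose centred log2 CPM profile over the 4 libraries lay closest to that of Hes1, among 6886 with a mean of at least 20 CPM, were Smarcal1 (Euclidean distance 0.15), Rnf187 (0.20) and Nudt16 (0.28).

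**Figure D2:**
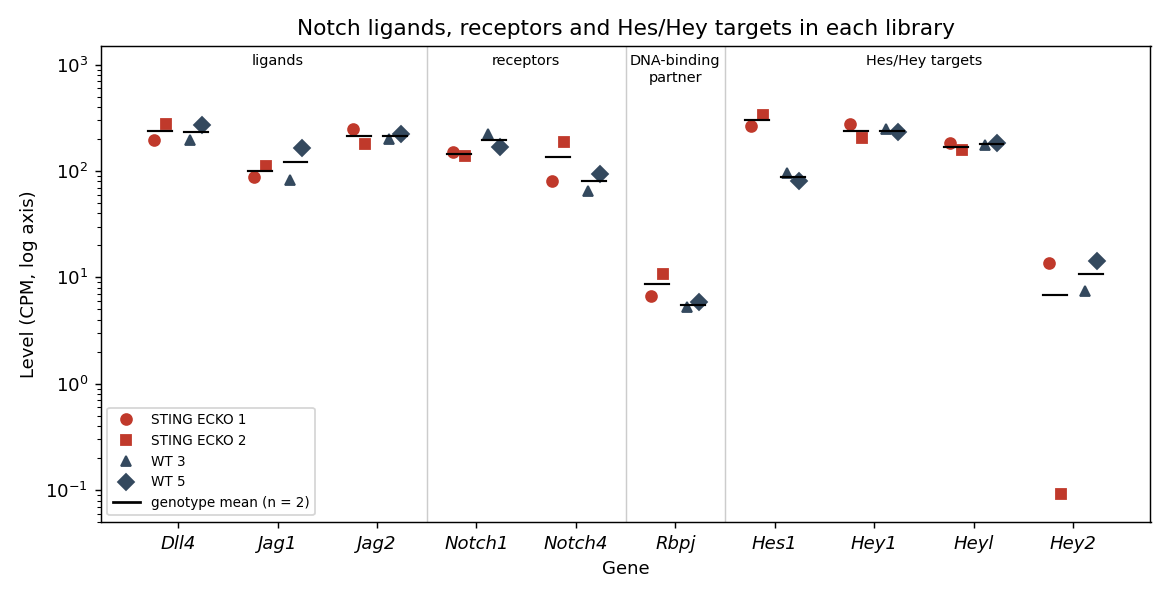
Level of each gene in CPM (log axis) by role, with STING ECKO 1 and 2 in red left of WT 3 and 5 in dark grey; black bars are genotype means of 2 libraries. Hes1 is at 262 and 337 CPM in STING ECKO, above 95.4 and 80.7 CPM in WT, while Dll4, Jag2, Hey1 and Heyl overlap between the genotypes.

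The other targets overlapped between the genotypes. Hey1, a Hes-related repressor of arterial endothelium (ENSMUSG00000040289, chromosome 3, 8663359 to 8667256, minus strand), measured 275 and 206 CPM in STING ECKO 1 and 2, against 247 and 233 CPM in WT 3 and 5. The WT values lay between the STING ECKO values, and the log2 fold change was 0.00 (SE 0.24), with means of 241 ± 49.0 CPM in STING ECKO, against 240.2 ± 10.1 CPM in WT (SD, n = 2 each). Heyl, a family member known from mural cells (ENSMUSG00000032744, chromosome 4, 123233556 to 123249875, plus strand), was at 182 and 158 CPM in STING ECKO, against 174 and 185 CPM in WT. Its log2 fold change was -0.08 (SE 0.23), and it varied least of the 10 genes, with an SD of 6.90% of the mean over the 4 libraries.

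Hey2, which acts with Hey1 in arterial specification (ENSMUSG00000019789, chromosome 10, 30832359 to 30842801, minus strand), set STING ECKO 2 apart from the other libraries. It had 250 and 2 reads in STING ECKO 1 and 2, against 164 and 296 reads in WT 3 and 5. The level in STING ECKO 2 was 0.0916 CPM (95% exact binomial interval 0.0111 to 0.331, counting error only), against 13.6 CPM in STING ECKO 1 and 7.53 and 14.2 CPM in WT. The genotypes overlapped, and the log2 fold change of -0.67 (SE 1.98) turned to 0.32 without STING ECKO 2 and was -6.81 without STING ECKO 1. Genes of this level were at 0 reads more often in STING ECKO 2 than in the other libraries. The cause of the low Hey2 count was not tested. Where the other libraries averaged 5 to 20 CPM, 15.6% of genes were at 0 reads in STING ECKO 2. The share in the other libraries was 1.40% for STING ECKO 1, 4.53% for WT 3 and 2.63% for WT 5. Where the other libraries averaged 1 to 5 CPM, the share at 0 reads was 36.1% for STING ECKO 2, 8.82% for STING ECKO 1, 15.3% for WT 3 and 6.42% for WT 5. Low reads in STING ECKO 2 also occurred for Hes5 and Nrarp, which lie in these ranges of level. In the same ranges, Rbpj, Dlk1 and Neurl1b, given further on, were highest in STING ECKO 2. Hes5 had 113 and 0 reads in STING ECKO, against 184 and 117 in WT. Nrarp, a feedback inhibitor of Notch named here after its values were seen, had 35 and 2 reads in STING ECKO, against 38 and 40 in WT.

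The receptors had opposite signs, and neither passed the test. Notch1, the receptor best known from vessel sprouting (ENSMUSG00000026923, chromosome 2, 26457903 to 26516663, minus strand), measured 152 and 137 CPM in STING ECKO 1 and 2, against 221 and 170 CPM in WT 3 and 5. Both STING ECKO values were below both WT values, and the log2 fold change was -0.43 (SE 0.25; edgeR quasi-likelihood adjusted p = 1.00). Exons of 2 noncoding genes on the opposite strand overlap Notch1, and the strand setting of the counting is not given, so reads of these genes cannot be told apart. Notch4, a receptor largely restricted to endothelium (ENSMUSG00000015468, chromosome 17, 34564268 to 34588503, plus strand), was at 80.9 and 188 CPM in STING ECKO, against 65.1 and 94.6 CPM in WT. Only STING ECKO 2 lay above the WT range. The log2 fold change was 0.75 (SE 0.49; adjusted p = 1.00), and it was 0.02 without STING ECKO 2. The per-kilobase level of Notch4 was 0.939 and 2.42 times that of Notch1 in STING ECKO 1 and 2, against 0.521 and 0.983 times in WT 3 and 5, so the genotypes overlapped in this ratio.

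All 3 ligands overlapped between the genotypes. Dll4 (ENSMUSG00000027314, chromosome 2, 119325784 to 119335962, plus strand) measured 197 and 279 CPM in STING ECKO 1 and 2, against 198 and 269 CPM in WT 3 and 5. In both genotypes the library of the second table, STING ECKO 2 or WT 5, was the higher one. The log2 fold change was 0.03 (SE 0.29), and exons of a noncoding gene overlap Dll4 on the opposite strand. Jag1 (ENSMUSG00000027276, chromosome 2, 137081456 to 137116644, minus strand), a ligand that in mouse retina opposes Dll4, was at 88.2 and 110 CPM in STING ECKO, against 82.8 and 163 CPM in WT. WT 5 was the highest library, and the log2 fold change of -0.31 (SE 0.41) turned to 0.26 without it. Jag2 (ENSMUSG00000002799, chromosome 12, 112907819 to 112929776, minus strand), another Jagged ligand, was at 247 and 180 CPM in STING ECKO, against 202 and 221 CPM in WT, with a log2 fold change of 0.02 (SE 0.25). Jag1 stayed below Dll4 per kilobase in every library, at 0.296 and 0.262 of its level in STING ECKO, against 0.277 and 0.4005 in WT.

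Rbpj, the DNA-binding protein through which the cut receptors act (ENSMUSG00000039191, chromosome 5, 53466152 to 53657362, plus strand), had 124 and 235 reads in STING ECKO 1 and 2, against 114 and 122 reads in WT 3 and 5. This was 6.74 and 10.8 CPM in STING ECKO, against 5.24 and 5.85 CPM in WT. The genotypes did not overlap, but STING ECKO 1 had a counting interval of 5.61 to 8.04 CPM and WT 5 one of 4.86 to 6.98 CPM, so these libraries were not separated at this depth. The log2 fold change was 0.66 (SE 1.13) and 0.28 without STING ECKO 2. The annotation holds processed pseudogenes of Rbpj, and the sources used here do not say how reads shared with such copies were counted, so its low level is uncertain.

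**Figure D3:**
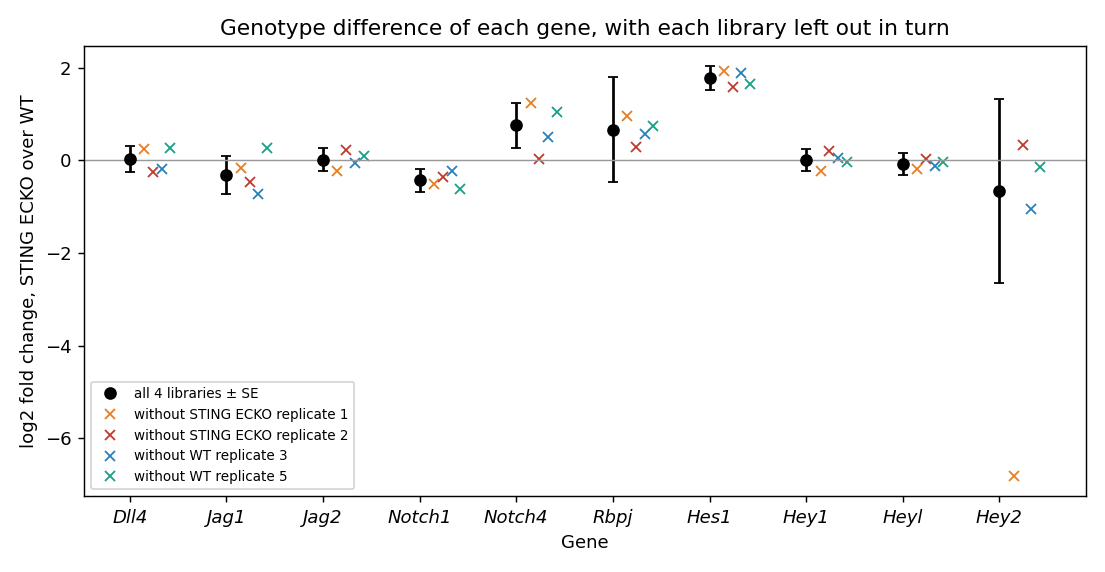
log2 fold change of STING ECKO over WT for each gene by role; black circles with bars are the fit on all 4 libraries ± SE, and crosses are fits that leave out 1 library each. Hes1 stays between 1.58 and 1.93 in the leave-out fits, whereas Hey2 ranges from -6.81 to 0.32 and Dll4, Jag1, Jag2, Hey1 and Heyl change sign.

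None of the 10 genes passed the quasi-likelihood test after adjustment (edgeR, 0 of 10; 0% of all 13365 genes were called). At an unadjusted p under 0.05 there was 1 of 10, which was Hes1, against 4.86% of all genes. DESeq2 called 1 of 10, again Hes1, against 0.691% of all genes in either direction and 0.35% higher, and the edgeR likelihood ratio test called Hes1 alone, against 0.247%. The genotypes did not overlap in 3 of 10 genes, Hes1 and Rbpj higher and Notch1 lower in STING ECKO, where 34.2% of all tested genes did not overlap. The median log2 fold change of the 10 genes was 0.01, and that of all genes -0.02. Libraries of a genotype also differed from each other: the absolute log2 ratio of STING ECKO 2 to 1 exceeded that of the genotype means in 8 of 10 genes, and that of WT 5 to 3 in 6 of 10.

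The authors' deposited tables compare STING ECKO 1 with WT 3 and STING ECKO 2 with WT 5, library against library. In the authors' deposited tables Hes1 had a log2 fold change of 1.42 in the first pair and 2.02 in the second, and it was marked as changed in both. Of the 10 genes, the authors' deposited table of the first pair marked only Hes1, where 21.5% of its genes were marked higher, 19.4% lower and 40.9% in all, and the authors' deposited table of the second pair marked Hes1 and Hey2, where 17% were marked higher, 35.1% lower and 52.1% in all. A gene without the mark can still have a low deposited p-value. Notch1 in the first pair and Notch4 in the second were unmarked with deposited adjusted p-values far under 0.05. Some deposited adjusted p-values, such as that of Dll4 in the first pair, lie below the unadjusted ones. A Benjamini-Hochberg adjustment cannot give this, so that column is cited only as deposited. The marked pathway genes all had an absolute log2 fold change over 1. The log2 fold change of Hey2 in the authors' deposited tables was 0.81 in the first pair and -7.32 in the second. Notch4 in the authors' deposited tables was at 0.28 in the first pair and 0.95 in the second, and Notch1 at -0.57 in the first and -0.35 in the second.

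Among other receptors and ligands, 0 of 3 tested genes passed. Notch3, known from mural cells, measured 124 and 200 CPM in STING ECKO 1 and 2, against 147 and 158 CPM in WT 3 and 5, with a log2 fold change of 0.08. Notch2 had 156 and 20 reads in STING ECKO, against 520 and 137 in WT, which overlap, and a log2 fold change of -1.70 (SE 1.48). Dlk1, a Delta-like protein that lacks the motif for activating Notch, had 100 and 174 reads in STING ECKO, against 98 and 39 in WT. Notch3 and Notch2 thus overlapped between the genotypes, while both STING ECKO values of Dlk1 were above both WT values. The first table alone lists 3 further ligands. Dll1 had 67 reads in STING ECKO 1, against 146 in WT 3. Dll3 had 96 reads in STING ECKO 1, against 77 in WT 3. Dlk2, a relative of Dlk1, had 0 reads in STING ECKO 1, against 49 in WT 3.

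Hes6 and Hes5 were the other Hes genes with a test. Hes6 encodes a protein that in mouse antagonises Hes1 and promotes neuronal differentiation. Hes6 had 2738 and 6726 reads in STING ECKO 1 and 2, against 2278 and 2125 reads in WT 3 and 5, or 149 and 308 CPM in STING ECKO against 105 and 102 CPM in WT. The genotypes did not overlap, and the log2 fold change was 1.15 (SE 0.40; edgeR quasi-likelihood adjusted p = 0.971). STING ECKO 2 was far above the other libraries, and the authors' deposited tables give Hes6 a log2 fold change of 0.47 in the first pair and 1.56 in the second. For Hes5, given above, the log2 fold change was -1.19 (SE 2.42), and Hes7 had 0 reads in STING ECKO 2 and 30 in WT 5.

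Genes for the cleavage and maturation of Notch were 4 above and 5 below 0 of 9 tested, with 0 past the test and a median log2 fold change of -0.15. Aph1a, a subunit of the gamma-secretase that releases the intracellular part, was at 37.6 and 37.8 CPM in STING ECKO, against 60.5 and 102 CPM in WT. Its paralogue Aph1b was at 24.7 and 21.1 CPM in STING ECKO, against 8.82 and 16.3 CPM in WT. These subunits thus had opposite signs, with log2 fold changes of -1.11 (SE 0.44) and 0.86 (SE 0.79). Of 5 glycosyltransferase genes that modify the receptor, 0 passed, 4 were above 0, and the median was 0.26. Pofut1, which adds fucose to Notch, was at 36.2 and 25.9 CPM in STING ECKO, against 12.2 and 33.8 CPM in WT, and Poglut1, which adds glucose, at 36.9 and 24.8 CPM in STING ECKO, against 48.1 and 32.3 CPM in WT. Both overlapped between the genotypes.

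Nuclear cofactors were 5 above and 11 below 0 of 16 tested, with 0 past the test and a median of -0.10. Maml1, a coactivator that binds Rbpj and the cut receptor, measured 43.1 and 27.5 CPM in STING ECKO, against 62.6 and 84.1 CPM in WT, and Kdm5a, a histone demethylase of the corepressor side, at 267 and 221 CPM in STING ECKO, against 141 and 183 CPM in WT. Their log2 fold changes were -1.05 (SE 0.45) and 0.59 (SE 0.25). Of 12 tested genes for ubiquitination and endocytosis, 0 passed, with 6 above and 6 below 0 and a median of 0.07. Numb, an endocytic inhibitor of Notch, was at 96.7 and 89.5 CPM in STING ECKO, against 159 and 196 CPM in WT, a log2 fold change of -0.93 (SE 0.26; adjusted p = 0.971 by edgeR). Mib2, a ligand ubiquitin ligase, was at 18.5 and 19.3 CPM in STING ECKO, against 59.6 and 26.6 CPM in WT, a log2 fold change of -1.19 (SE 0.64). Both had STING ECKO values below both WT values. The Neuralized genes Neurl1a, Neurl1b and Neurl3 were named after their values were seen and are of low level, where STING ECKO 2 had more genes at 0 reads. Neurl1a and Neurl1b differed in opposite directions without overlap, and Neurl3 overlapped between the genotypes. Neurl1a had 10 and 0 reads in STING ECKO, against 124 and 221 in WT, while Neurl1b had 113 and 511 reads in STING ECKO, against 75 and 120 in WT. Neurl3 had 63 and 0 reads in STING ECKO, against 3 and 203 in WT.

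Of 12 other targets and arterial genes linked to Notch, 0 passed, 5 were above and 7 below 0, and the median was -0.03. Myc, a growth regulator, was at 41.6 and 49.9 CPM in STING ECKO, against 52.6 and 90.2 CPM in WT, and Sox17, an arterial transcription factor, at 446 and 267 CPM in STING ECKO, against 521 and 442 CPM in WT. Their log2 fold changes were -0.64 (SE 0.45) and -0.43 (SE 0.30). Of all 68 pathway genes outside the 10, 59 were tested, 0 passed in either direction by the edgeR quasi-likelihood test, 3 had an unadjusted p under 0.05, and DESeq2 called 0. They were 27 above and 32 below 0, with a median log2 fold change of -0.03, near the -0.02 of all genes. The genotypes did not overlap in 13 genes higher and 12 lower in STING ECKO, where 15.6% of all genes were higher and 18.6% lower without overlap.

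**Figure D4:**
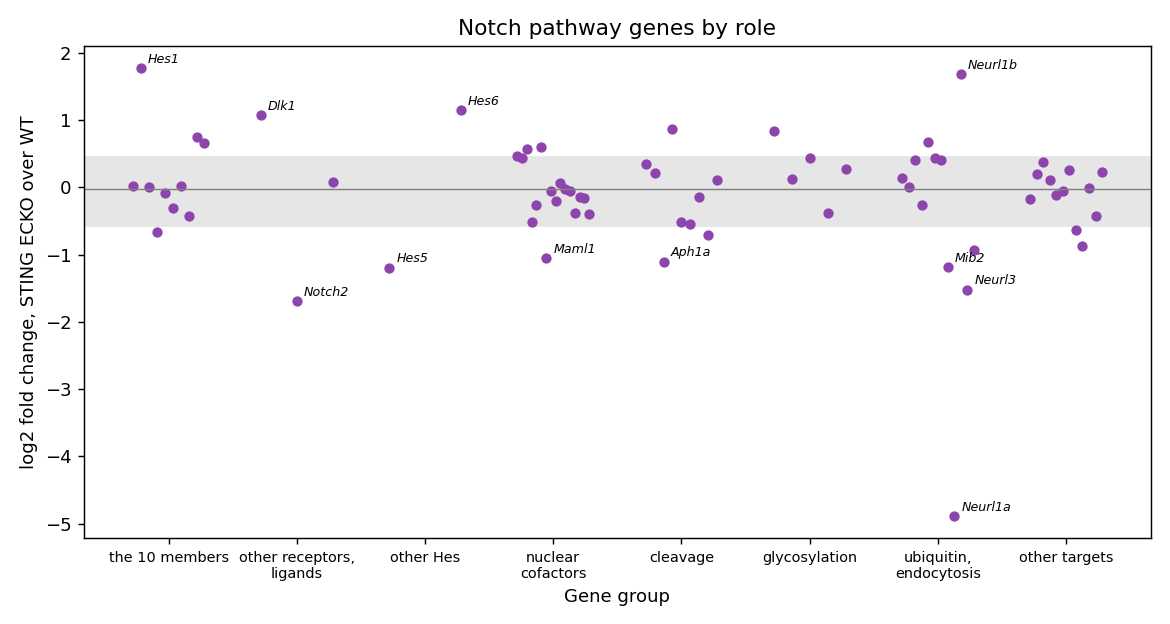
log2 fold change of STING ECKO over WT for the tested Notch pathway genes by role; each point is a gene, names mark absolute values over 1, the grey band spans the middle quartiles of all tested genes (-0.57 to 0.45) and the line is their median. Hes1 is at 1.77 and Hes6 at 1.15, Notch2 at -1.70, and most genes lie within or near the band.

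Markers of other cell types were present; the counts without overlap that follow stand beside 15.6% of all tested genes higher, 18.6% lower and 34.2% in either direction. Of 8 pericyte markers, 8 were tested and 4 were higher and 1 lower in STING ECKO without overlap, with a summed level of 10055 and 10499.7 CPM in STING ECKO, against 8164 and 7555 CPM in WT. The defining pericyte markers Rgs5 and Pdgfrb had reads in every library. Rgs5 was higher without overlap, at 6830 and 7238 CPM in STING ECKO, against 5555 and 4845 CPM in WT, while Pdgfrb overlapped. The pericyte list includes Notch3, and the next list Hes5. Of 9 tested radial glia and astrocyte markers, 1 was higher and 4 lower without overlap, with sums of 1153 and 755 CPM in STING ECKO, against 1008 and 978 CPM in WT. The glial glutamate transporter Slc1a3 was at 13.1 and 0.595 CPM in STING ECKO, against 50.5 and 33.7 CPM in WT, and the fatty acid-binding protein gene Fabp7 at 18.2 and 9.53 CPM in STING ECKO, against 23.7 and 9.06 CPM in WT, which overlap. Most of these sums came from Nes and Vim, each with a log2 fold change of 0.05. Besides Slc1a3, those lower without overlap were Pax6, Aqp4 and Sox2. Pax6 had 1 and 1 reads in STING ECKO, against 248 and 121 in WT. Aqp4 had 12 and 0 reads in STING ECKO, against 257 and 141 in WT. Sox2 had 3 and 5 reads in STING ECKO, against 51 and 11 in WT. Nes, Vim, Pax6, Aqp4 and Sox2 were named after their values were seen. Of 8 neuron markers, 4 were lower without overlap, with sums of 63.7 and 42.3 CPM in STING ECKO, against 135 and 87.1 CPM in WT. These included Tubb3, at 6.20 and 1.37 CPM in STING ECKO, against 14.1 and 11.5 CPM in WT. Snap25 overlapped, at 0 and 1.56 CPM in STING ECKO, against 17.5 and 0.335 CPM in WT. Only Rbfox3, named after its values were seen, was above 0, with a log2 fold change of 1.06. Of 6 microglia and macrophage markers, 3 were lower without overlap, with sums of 281 and 185 CPM in STING ECKO, against 379 and 925 CPM in WT.

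Smooth muscle markers summed to 31.6 and 0.412 CPM in STING ECKO, against 22.5 and 23.6 CPM in WT. Of 2 tested, 1 was lower without overlap, and Acta2 was at 0 in both STING ECKO libraries. Myh11, Tagln and Cnn1 were listed in the first table only, with Myh11 at 0 in WT 3. In all marker sums an unlisted gene counts as 0, so these sums cover unlike genes. This also holds for the glial sums (Gfap, first table only) and the fibroblast sums (Lum, second table only). Fibroblast markers summed to 33.2 and 19.8 CPM in STING ECKO, against 11.5 and 23.3 CPM in WT, with 1 of 2 tested higher without overlap and Dcn at 0 in STING ECKO 2. Erythroid markers summed to 1204 and 2829.8 CPM in STING ECKO, against 2476 and 1282 CPM in WT, with 1 of 4 higher without overlap. The other defining markers, Cldn5, Pecam1, Cdh5, Fabp7, Tubb3, Cx3cr1, C1qb, Col1a1, Alas2 and Hbb-bs, had reads in every library. Among them, Pecam1, Tubb3, Cx3cr1 and C1qb were lower in STING ECKO without overlap, Col1a1 was higher, and the rest overlapped. Col1a1 was at 30.1 and 19.7 CPM in STING ECKO, against 4.41 and 19.0 CPM in WT. Of the markers tested in these lists, 0 passed. The part of pericyte RNA in the values of Hes1 was not tested. Without STING ECKO 1, the library with Ddx3y reads, the log2 fold change of Hes1 was 1.93.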

How the data were processed

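RNA was measured in 4 libraries, 2 labelled STING ECKO and 2 WT. Tools in the submitters' processing notes are TopHat2 2.0.12, Bowtie2 2.2.3 and HTSeq 0.6.0, with mm9 as the build; no source used here gives the annotation release, strand setting or treatment of multiply matching reads. Count columns were deposited as whole numbers of reads for each gene, per the file headers. The authors' normalized columns are CPM, with a count of 0 written as 0.5 read. The deposited fold change column is the ratio of these CPM values, the deposited log2 column is its log2, and each p-value deposited by the authors sets a single library against another. The values stand in 2 deposited tables, merged by gene identifier; 0 library columns were left unassigned. Of 17858 genes found in GENCODE M21, 16013 (89.7%) had identical positions, so printed coordinates follow GRCm38 and not mm9.

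Genotypes were compared in edgeR 4.0.16 (R 4.3.3) with filterByExpr (minimum count 10), TMM factors on the listed reads, the quasi-likelihood test and Benjamini-Hochberg adjustment over 13365 genes at 0.05; all 10 genes passed the filter. CPM in the text use TMM-scaled library sizes, and an SE is the absolute log2 fold change over the square root of F. DESeq2 1.42.0, limma 3.58.1 (voom), the likelihood ratio test, other scalings, other filters, the deposited table as a block and fits without each library were alternatives. Exon lengths are the union of exons in GENCODE M21. Intervals are 95% exact binomial and cover counting error only. 1 read was 0.0451 to 0.0537 CPM before TMM scaling.

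The members, gene lists and tests were chosen with earlier results of these data known. Named genes are the 10 members, every gene of the other receptor, ligand and Hes lists, and in each other pathway list the 2 genes of at least 10 CPM with the largest absolute log2 fold change, besides any past the test. The 3 profiles closest to Hes1 and the defining markers of each cell type list were also named.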

Additional observations from a re-analysis of the deposited data

Results flagged for a closer look

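Dll3 and Numbl belong to the pathway lists but stand in 1 deposited table only, so they took no part in the genotype test. Dll3, a Delta-like protein that inhibits Notch, had 96 reads in STING ECKO 1 and 77 in WT 3. Numbl, a relative of the Notch inhibitor Numb, had 44 reads in STING ECKO 1 and 0 in WT 3. Each was above the WT library of its table. Neither is listed for STING ECKO 2 and WT 5, and no test of the genotypes was made for them. The other pathway genes in 1 table only, Dll1, Dlk2, Hes7 and Dtx1, were below the WT library of their table. Dll1 had 67 reads in STING ECKO 1 and 146 in WT 3, and Dlk2 had 0 and 49. Hes7 had 0 reads in STING ECKO 2 and 30 in WT 5, and Dtx1 had 23 and 213.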

How the results depend on the processing

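Hes1, Notch4 and Rbpj kept a log2 fold change above 0, and Notch1 one below 0, under all 13 alternatives. DESeq2 called 87 genes over all and 1 of the 10, and the edgeR likelihood ratio test called 33 and 1; each called 1 gene over the whole pathway, which was Hes1. The other 11 alternatives called 0 genes. Without STING ECKO 1, the median log2 fold change of all genes was -0.20, and with all 4 libraries it was -0.02.

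The sign turned for Hey1, Jag2, Dll4, Hey2, Heyl and Jag1 under the settings that follow, and the cause was not tested. Hey1 was at -0.0262 by limma-voom, -0.035 with upper-quartile factors, -0.0012 without a filter, -0.0103 at a minimum count of 50 and -0.0127 with the deposited table as a block. Jag2 was at -0.013 by limma-voom and -0.0199 with upper-quartile factors, where Dll4 was at -0.0145. Leaving out 1 library gave -0.2393 to 0.2276 for Jag2, -0.233 to 0.197 for Hey1, -0.2463 to 0.2639 for Dll4, -6.8104 to 0.3245 for Hey2, -0.1951 to 0.0185 for Heyl and -0.7213 to 0.2622 for Jag1. Lengths of the longest transcript moved the level of 6 of 10 genes (Hey1, Heyl, Jag2, Notch1, Hey2 and Rbpj) by more than the SD and exchanged Heyl with Jag2 and Notch4 with Notch1 in the order.

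The labels give the genotypes no shared replicate number; the only pairing run was the deposited table as a block, with a log2 fold change of 1.76 for Hes1 and 0 genes called by edgeR (277 at an unadjusted p under 0.05). Leaving out a library leaves its genotype with 1 library, assumed to vary like the other. Depth limits Rbpj, where the counting interval of STING ECKO 1 overlaps those of WT 3 and 5; for Hey2 the STING ECKO libraries differ by far more than counting error.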
